A study of Mus musculus with 8 samples.

Results

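The 8 genes described here are imprinted growth regulators: Plagl1, H19, Igf2, Igf2r, Grb10, Cdkn1c, Phlda2 and Dlk1. They were taken by gene symbol from the 24279 genes of the deposited comparison tables, and all 8 were found. They were selected in part on measured values, namely the opposite changes of Plagl1, H19 and Grb10 in these tables. Their values against noDox are therefore a description and not a test, and they support nothing beyond themselves.

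RNA of 8 libraries of mouse embryonic stem cells, 2 in each of 4 groups, was sequenced 6 days after withdrawal of LIF, the cytokine leukemia inhibitory factor that keeps such cells undifferentiated. The DOX group is labelled as cells without AGO1 to AGO4, the microRNA-binding proteins of the silencing complex, in which doxycycline switches on AGO2 as the only Argonaute. The NLS group is labelled as the same knockout whose only Argonaute is AGO2 bearing a nuclear localization signal, E14 as the wild-type cells, and noDox as the AGO1-4-/- knockout itself. The question, per the series title, concerns the need for nuclear silencing by Argonaute and microRNAs in differentiation. All libraries carry the cell description of the inducible HA-Flag-AGO2 line, E14 included, and a treatment text with 2.5 µg/ml doxycycline given daily, noDox included. Passages were given as 8 to 15, and whether the pair of libraries in a group came from separate cultures or clones is not given in the sources used here.

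Each table holds, for each group, a single value in RPKM (reads per kilobase of transcript, scaled to library depth), so the value of an individual library and the spread between libraries were not available here. The depth of the libraries is unknown. The tables named for DOX and for E14 were identical in 24279 of 24279 lines, so that group is called DOX/E14, and its values belong to either set of libraries. Ago1 stood at 16.7 RPKM in DOX/E14, against 0.0159 RPKM in noDox, which goes against a label of AGO2 alone, although the difference did not pass. In NLS it stood at 0.861 RPKM and was not tested. Ago2 stood at 32.6 RPKM in DOX/E14 and 35.7 RPKM in NLS, passing in neither, against 26.1 RPKM and 26.8 RPKM in noDox, a group labelled as lacking it. Ago3 was lower in DOX/E14, at 3.001 RPKM against 7.56 RPKM in noDox, and higher in NLS, at 14.5 RPKM against 7.76 RPKM. The tables do not separate intact from deleted transcripts. The Y-linked Ddx3y was higher in DOX/E14, at 11.1 RPKM where noDox was listed at 0, and stood at 0.311 RPKM in NLS, where it was not tested. Xist, the RNA that silences an X chromosome, was lower in DOX/E14, at 1.20 RPKM against 3.75 RPKM in noDox, and stood at 5.30 RPKM in NLS against 3.86 RPKM in the noDox column of the NLS table, which did not pass the test. The part of these Argonaute and sex-linked differences in the results below was not tested.

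Genomic imprinting is the expression of a gene from the maternal or the paternal copy alone, set by DNA methylation that is laid down in the germ line and kept through the early embryo. Many imprinted genes act on fetal and placental growth, with paternally expressed genes such as Igf2 and Dlk1 promoting it and maternally expressed genes such as H19, Igf2r, Cdkn1c and Phlda2 restraining it. Plagl1, also called Zac1, is a paternally expressed zinc-finger transcription factor that is known in the mouse to regulate a network of other imprinted genes. In cultured embryonic stem cells imprints can be gained or lost, and RNA levels summed over both copies do not show which copy was read.

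Of the members, 7 were tested in each table and Dlk1 was tested in neither. Against noDox, 6 of the 7 passed q < 0.05 in DOX/E14, 4 higher and 2 lower than noDox, beside 55.5% of all tested genes (27.2% higher and 28.3% lower). In NLS, 4 of the 7 passed, 3 higher and 1 lower, beside 8.36% of all tested genes (3.97% higher and 4.39% lower). The 7 tested members had a median log2 fold of 4.97 for DOX/E14 and 2.55 for NLS, beside 0.0075 and −0.0077 over all tested genes. Folds ran between −8.70 and 7.28 in DOX/E14 and between −0.99 and 3.66 in NLS. Errors are standard errors (SE) implied by the deposited statistic. Both tables share the noDox libraries, so their folds are given side by side and differences between DOX/E14 and NLS were not tested.

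**Figure D1:**
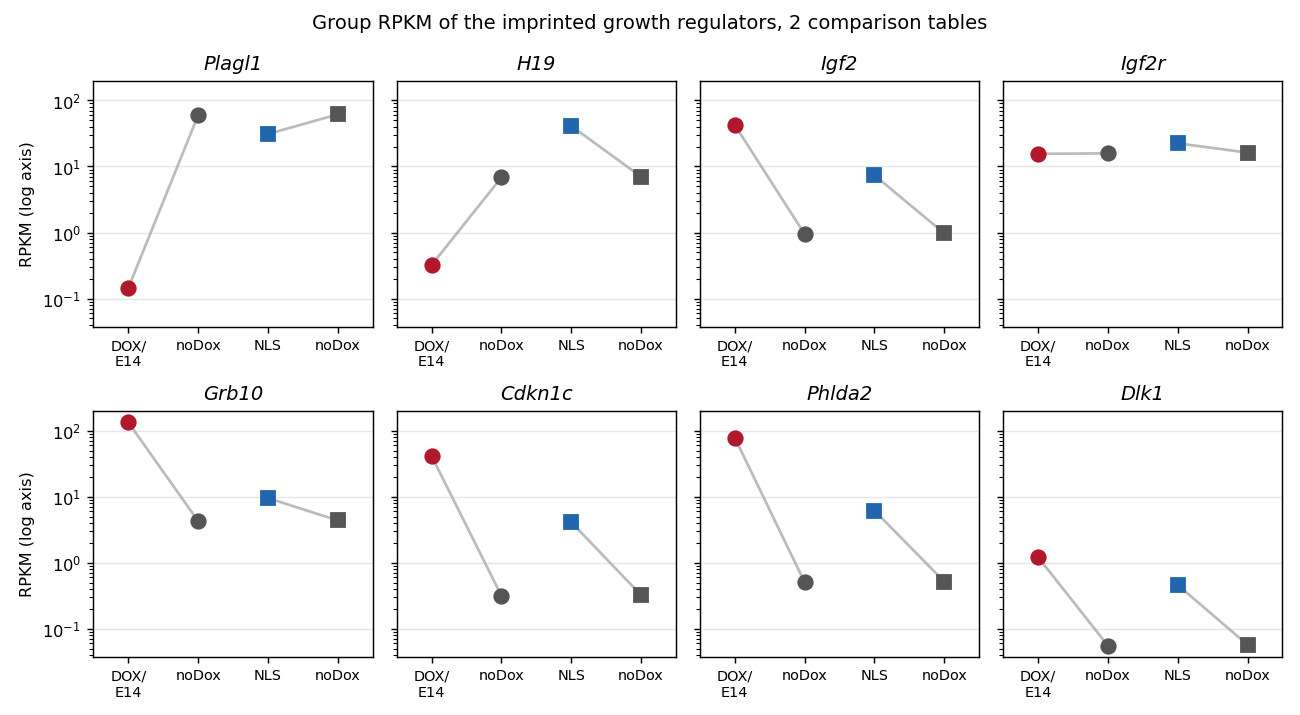
RPKM of each member on a log axis, with DOX/E14 beside the noDox value of the first table and NLS beside the noDox value of its own table; each point is the authors' value for a group. Plagl1 stands at 0.145 RPKM in DOX/E14 and 60.1 RPKM in noDox, Igf2r lies between 15.5 and 22.4 RPKM in every group, and the other members apart from H19 are higher in both DOX/E14 and NLS than in noDox.

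Plagl1 was the member with the highest level in noDox and the lowest in DOX/E14. It stood at 0.145 RPKM in DOX/E14, against 60.1 RPKM in noDox, a log2 fold of −8.70 (SE 0.74). This was the 5th lowest fold among 12192 genes tested with a finite fold. NLS cells held 31.1 RPKM, against 61.6 RPKM in the noDox column of that table, a log2 fold of −0.99 (SE 0.31). Plagl1 RNA thus stood in NLS at 0.504 of the noDox level, while in DOX/E14 it was almost gone, and both falls passed q < 0.05. Hymai, a transcript named for the same locus, stood at 0.0255 RPKM in DOX/E14 against 3.10 RPKM in noDox, which did not pass, with q = 0.263 in the authors' deposited table. In NLS Hymai stood at 2.86 RPKM against 3.18 RPKM in noDox, also short of the test. With a pseudocount of 1, which weighs low levels less, the log2 fold of Plagl1 in DOX/E14 was −5.74, that of H19 −2.56 and that of Dlk1 1.07.

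Plagl1 lies at chr10:13060504-13131694 on the plus strand of GRCm38. The 250 bases upstream of its RefSeq start on GRCm38.p6 (chr10:13090582-13090831) are shown with every CpG, the dinucleotide that carries imprint methylation, in capitals, because the CpG counts of the members' promoters are compared below. The same is shown for the RefSeq starts of Grb10 (minus strand, chr11:12037421-12037670 and chr11:12027972-12028221), a gene known in the mouse to use different promoters on its maternal and paternal copies, and for Phlda2 (minus strand, chr7:143502525-143502774).
Plagl1: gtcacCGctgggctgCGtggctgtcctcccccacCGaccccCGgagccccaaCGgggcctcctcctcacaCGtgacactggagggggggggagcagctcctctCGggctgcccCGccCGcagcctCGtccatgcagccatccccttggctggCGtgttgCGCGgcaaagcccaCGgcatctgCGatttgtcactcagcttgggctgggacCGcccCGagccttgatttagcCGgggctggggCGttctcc
Grb10 start 1: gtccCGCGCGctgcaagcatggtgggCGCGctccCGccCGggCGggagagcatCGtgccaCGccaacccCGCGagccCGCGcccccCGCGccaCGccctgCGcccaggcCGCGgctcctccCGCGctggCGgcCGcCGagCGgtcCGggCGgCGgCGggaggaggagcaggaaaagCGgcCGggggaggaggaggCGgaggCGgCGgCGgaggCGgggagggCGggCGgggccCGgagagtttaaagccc
Grb10 start 2: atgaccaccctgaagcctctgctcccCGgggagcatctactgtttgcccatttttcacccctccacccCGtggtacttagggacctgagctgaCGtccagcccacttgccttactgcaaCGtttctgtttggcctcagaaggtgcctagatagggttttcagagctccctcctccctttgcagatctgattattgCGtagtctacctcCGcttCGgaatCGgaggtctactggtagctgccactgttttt
Phlda2: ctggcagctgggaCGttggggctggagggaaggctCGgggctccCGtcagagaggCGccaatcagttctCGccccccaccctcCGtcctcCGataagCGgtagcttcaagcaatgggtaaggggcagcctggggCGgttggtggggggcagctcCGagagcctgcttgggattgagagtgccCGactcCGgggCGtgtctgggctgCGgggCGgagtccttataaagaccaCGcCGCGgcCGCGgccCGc

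The Plagl1 sequence shown holds 19 CpGs, that of Grb10 start 1 holds 40, that of Grb10 start 2 holds 8 and that of Phlda2 holds 21. In windows of 300 bases, from 250 before to 50 after the start, the counts were 26 for Plagl1, 45 and 9 for the Grb10 starts, 26 for Phlda2, 34 for Igf2r and 9 for Dlk1, and Igf2 had between 2 and 24 over its 4 starts. The median over 32851 RefSeq windows was 7. Windows rich in CpG thus belonged to a gene that was lower in DOX/E14 (Plagl1), a gene that was higher (Phlda2) and a gene that did not pass the test (Igf2r). H19 and Cdkn1c were not matched in the promoter table. The letters TGCCGC, the motif of the imprint protector ZFP57, were searched on both strands and lay in 11.6% of all windows. Among the members they lay in the windows of Plagl1, at position −90 from the start, of Grb10 start 1, at position 24, and of 1 of the 4 Igf2 starts, at position 30. The consensus of PLAGL1 itself, a run of G followed by a run of C, was searched in the same way and lay in 0.0852% of all windows and in 0 of the members' windows. Methylation and binding at these sequences were not measured here.

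H19 and Igf2 are neighbours on chromosome 7 that share enhancers and a methylated control region. H19, a maternally expressed noncoding RNA (chr7:142575529-142578143, minus strand), was the member that went in opposite directions. It stood at 0.322 RPKM in DOX/E14, against 6.82 RPKM in noDox (log2 fold −4.41, SE 0.77), and passed as lower. NLS cells held 41.1 RPKM of H19, against 7.01 RPKM in noDox (log2 fold 2.55, SE 0.38), and passed as higher.

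Igf2, the paternally expressed insulin-like growth factor of the fetus (chr7:142650766-142666816, minus strand), stood at 42.4 RPKM in DOX/E14, against 0.947 RPKM in noDox. Its log2 fold was 5.49 (SE 0.41). In NLS it stood at 7.35 RPKM, against 0.971 RPKM in noDox (log2 fold 2.92, SE 0.56). Igf2 rose in both tables. In DOX/E14, where Igf2 rose and H19 fell, the H19 level was 0.00759 of the Igf2 level, against 7.21 times it in noDox. In NLS, where both genes rose, H19 stood at 5.595 times Igf2, against 7.21 times in noDox. These ratios compare RPKM levels of the genes within a group and have no error.

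Igf2os, an antisense transcript overlapping Igf2, also rose in DOX/E14, to 1.64 RPKM against 0.106 RPKM in noDox, and was at 0.231 RPKM against 0.108 RPKM in NLS, where it was not tested. The counting is not stated to use strand, so reads of Igf2 and Igf2os cannot be told apart. Ins2, the insulin gene next to Igf2, was listed at 0 in every group.

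H19 is also the host of miR-675, whose precursor lies within an H19 exon on the same strand. Mir675 was listed at 0 in DOX/E14, against 38.5 RPKM in noDox, and at 0 in NLS, against 39.3 RPKM in noDox. It was not tested in either table, and in NLS it stood at 0 while H19 stood at 41.1 RPKM. A gene this short inside an exon shares its reads with the host, so its level is uncertain. The mature sequences from RefSeq (GRCm38.p6) are shown with the seed, bases 2 to 8, in capitals, beside microRNAs of the embryonic stem cell families miR-290 and miR-302, which share a seed, and let-7a, because Argonaute is the protein that differs between the labelled groups.
mmu-miR-675-5p: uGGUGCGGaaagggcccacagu
mmu-miR-675-3p: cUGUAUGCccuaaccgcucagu
mmu-miR-294-3p: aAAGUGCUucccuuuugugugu
mmu-miR-302b-3p: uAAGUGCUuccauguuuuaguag
mmu-let-7a-5p: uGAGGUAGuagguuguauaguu

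The match of the miR-294 and miR-302b seed, AGCACTT, was in 0 of the 7 members' 3′ UTRs searched and in 0 positions of the H19 transcript, beside 14.6% of 20966 3′ UTRs of GENCODE M21. The let-7 match, CTACCTC, was in 8.96% of all 3′ UTRs and, among the members, in that of Igf2r alone. It starts at base 667 of the 1304 bases of that UTR, at chr17:12683037-12683043 on the minus strand of GRCm38, and is shown in capitals with its flanks because it is the single seed match found in a member.
Igf2r let-7 match: tccgtgccCTACCTCatctctgt

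A seed match is a description of letters and not a measured site. Plagl1, the member with the deepest fall in DOX/E14, has a 3′ UTR of 2590 bases with neither match.

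Igf2r, the mannose 6-phosphate receptor that takes IGF2 to the lysosome for breakdown (chr17:12682406-12769664, minus strand), was the steadiest member. It stood at 15.5 RPKM in DOX/E14, against 15.8 RPKM in noDox (log2 fold −0.03, SE 0.26), with q = 0.915 in the authors' deposited table. The NLS value was 22.4 RPKM, against 16.2 RPKM in noDox (log2 fold 0.47, SE 0.30), with q = 0.168 in the authors' deposited table. With Igf2r near its noDox level and Igf2 higher, the Igf2 level was 2.73 times that of Igf2r in DOX/E14, against 0.0598 times in noDox. In NLS it was 0.328 times, against 0.0599 times in noDox. Airn, the antisense RNA that silences the paternal Igf2r copy in embryonic tissue, stood at 0.524 RPKM in DOX/E14 against 3.22 RPKM in noDox, and at 0.507 RPKM in NLS against 3.31 RPKM in noDox. Neither passed the test, with an SE of 3.38 in DOX/E14 and 4.24 in NLS, and Airn overlaps Igf2r, so their reads cannot be told apart without strand.

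Grb10, an adaptor protein that binds activated insulin and IGF1 receptors and restrains their signal (chr11:11930508-12038683, minus strand), had the highest level of any member in DOX/E14. It stood at 133 RPKM in DOX/E14, against 4.25 RPKM in noDox, a log2 fold of 4.97 (SE 0.30). The NLS level was 9.53 RPKM, against 4.37 RPKM in noDox (log2 fold 1.13, SE 0.37). Grb10 thus rose 31.4-fold in DOX/E14 and 2.18-fold in NLS. Of its 3 tested neighbours in DOX/E14, 1 was higher and 2 were lower, beside 27.2% higher and 28.3% lower among all tested genes. Fignl1, the higher one, is outside the naming rule and stood at 36.1 RPKM against 24.7 RPKM in noDox (log2 fold 0.55). Cobl, an actin nucleator, fell to 15.2 RPKM against 160 RPKM in noDox (log2 fold −3.40), and Ddc, the enzyme that makes dopamine and serotonin, fell to 4.20 RPKM against 18.7 RPKM (log2 fold −2.15). In NLS Cobl fell to 102 RPKM against 164 RPKM in noDox (log2 fold −0.68), and Ddc stood at 19.6 RPKM against 19.2 RPKM without passing.

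**Figure D2:**
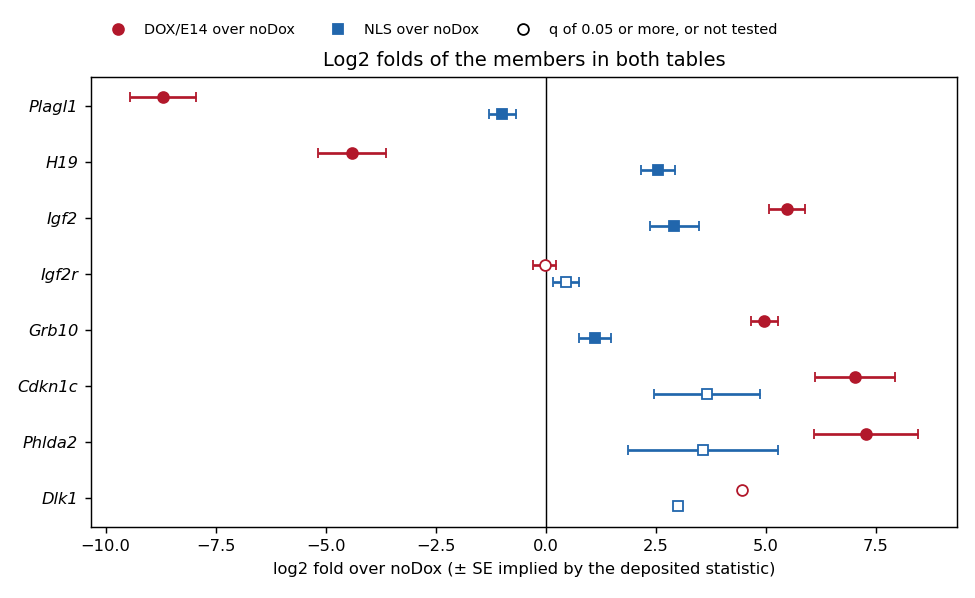
Log2 fold over noDox of each member in the DOX/E14 table (circles) and the NLS table (squares), with bars of 1 SE from the deposited statistic; open symbols mark a q of 0.05 or more or no test, and Dlk1 has no SE. H19 lies at −4.41 in DOX/E14 and 2.55 in NLS, and the folds of the other members with a call in both tables lie on the same side of 0 in both.

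Cdkn1c and Phlda2 lie on either side of Slc22a18 on chromosome 7, under the control of the imprinting centre of Kcnq1ot1, and both are expressed from the maternal copy. Cdkn1c encodes p57Kip2, an inhibitor of cyclin-dependent kinases (chr7:143458339-143461050, minus strand). It stood at 41.3 RPKM in DOX/E14, against 0.316 RPKM in noDox (log2 fold 7.03, SE 0.91), and rose. The NLS level was 4.10 RPKM, against 0.324 RPKM in noDox (log2 fold 3.66, SE 1.21), which did not pass, with q = 0.0747 in the authors' deposited table.

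Phlda2, a small pleckstrin-homology protein that limits placental growth (chr7:143501545-143503150, minus strand), stood at 78.2 RPKM in DOX/E14, against 0.504 RPKM in noDox. Its log2 fold of 7.28 (SE 1.18) was the highest among the members, and it passed with q = 0.0381 in the authors' deposited table. In NLS it stood at 6.16 RPKM, against 0.517 RPKM in noDox (log2 fold 3.58, SE 1.70), which did not pass, with q = 0.283 in the authors' deposited table. Both genes were close to 0.5 RPKM or lower in noDox, where the error of a fold is wide. By size of fold in DOX/E14, Phlda2 ranked 14th from the highest, Cdkn1c 17th, Igf2 33rd and Grb10 50th among 12192 genes. In NLS Cdkn1c ranked 38th, Phlda2 46th, Igf2 87th and H19 150th from the highest among 12755 genes, and Plagl1 725th from the lowest.

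Kcnq1ot1, the long antisense RNA of their imprinting centre, fell in DOX/E14, to 3.14 RPKM against 9.45 RPKM in noDox (log2 fold −1.59, SE 0.28). In NLS it stood at 13.9 RPKM against 9.70 RPKM and did not pass. Kcnq1, which it overlaps on the opposite strand, stood at 0.155 RPKM in DOX/E14 against 0.141 RPKM in noDox and was not tested. Ascl2, a trophoblast transcription factor of the same cluster, rose in DOX/E14 to 3.84 RPKM against 0.498 RPKM in noDox, and stood at 1.51 RPKM in NLS against 0.510 RPKM without passing. Nap1l4, a histone chaperone gene, and Osbpl5, a lipid transfer gene, also rose in DOX/E14, with log2 folds of 0.65 and 1.31. The tetraspanin gene Cd81 fell there, with a log2 fold of −0.81, and Tssc4 did not pass. Slc22a18 stood at 0.539 RPKM in DOX/E14 against 0.042 RPKM in noDox and was not tested.

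Dlk1, a paternally expressed membrane protein related to Notch ligands that holds back adipocyte differentiation (chr12:109452823-109463336, plus strand), was the lowest member in NLS and noDox. It stood at 1.22 RPKM in DOX/E14, against 0.0556 RPKM in noDox, and at 0.462 RPKM in NLS, against 0.0570 RPKM in noDox. The log2 folds were 4.45 and 3.02, and neither was tested by the authors.

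The noncoding RNAs read from the maternal copy of the same cluster were far lower in DOX/E14. Meg3 fell to 1.30 RPKM, against 30.3 RPKM in noDox (log2 fold −4.54, SE 0.58). Rian, the host of many small nucleolar RNAs, fell to 2.85 RPKM, against 32.1 RPKM in noDox (log2 fold −3.49). Mirg, a host of microRNAs, fell to 0.673 RPKM, against 10.2 RPKM in noDox (log2 fold −3.93). Meg3 stood at 1.07 times Dlk1 in DOX/E14, against 544 times in noDox, and at 53.5 times in NLS, against 545 times in noDox. Dlk1, the divisor, was untested and stood at 0.0556 RPKM in noDox and 0.462 RPKM in NLS, so these ratios are uncertain. Meg3 itself stood at 24.7 RPKM in NLS against 31.1 RPKM in noDox and did not pass. Rtl1, a retrotransposon-derived placental gene, and Dio3, which inactivates thyroid hormone, are read from the paternal copy as Dlk1 is, but they fell in DOX/E14, with log2 folds of −3.75 and −2.03. Rtl1 lies within this cluster together with an antisense transcript, so its reads are uncertain without strand. In NLS these 5 genes stood between −0.41 and −0.13 in log2 fold. Of the 5, 0 passed q < 0.05 in Cuffdiff, beside 8.36% of all tested genes. Their unadjusted Cuffdiff p-values lay between 0.21 and 0.69.

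**Figure D3:**
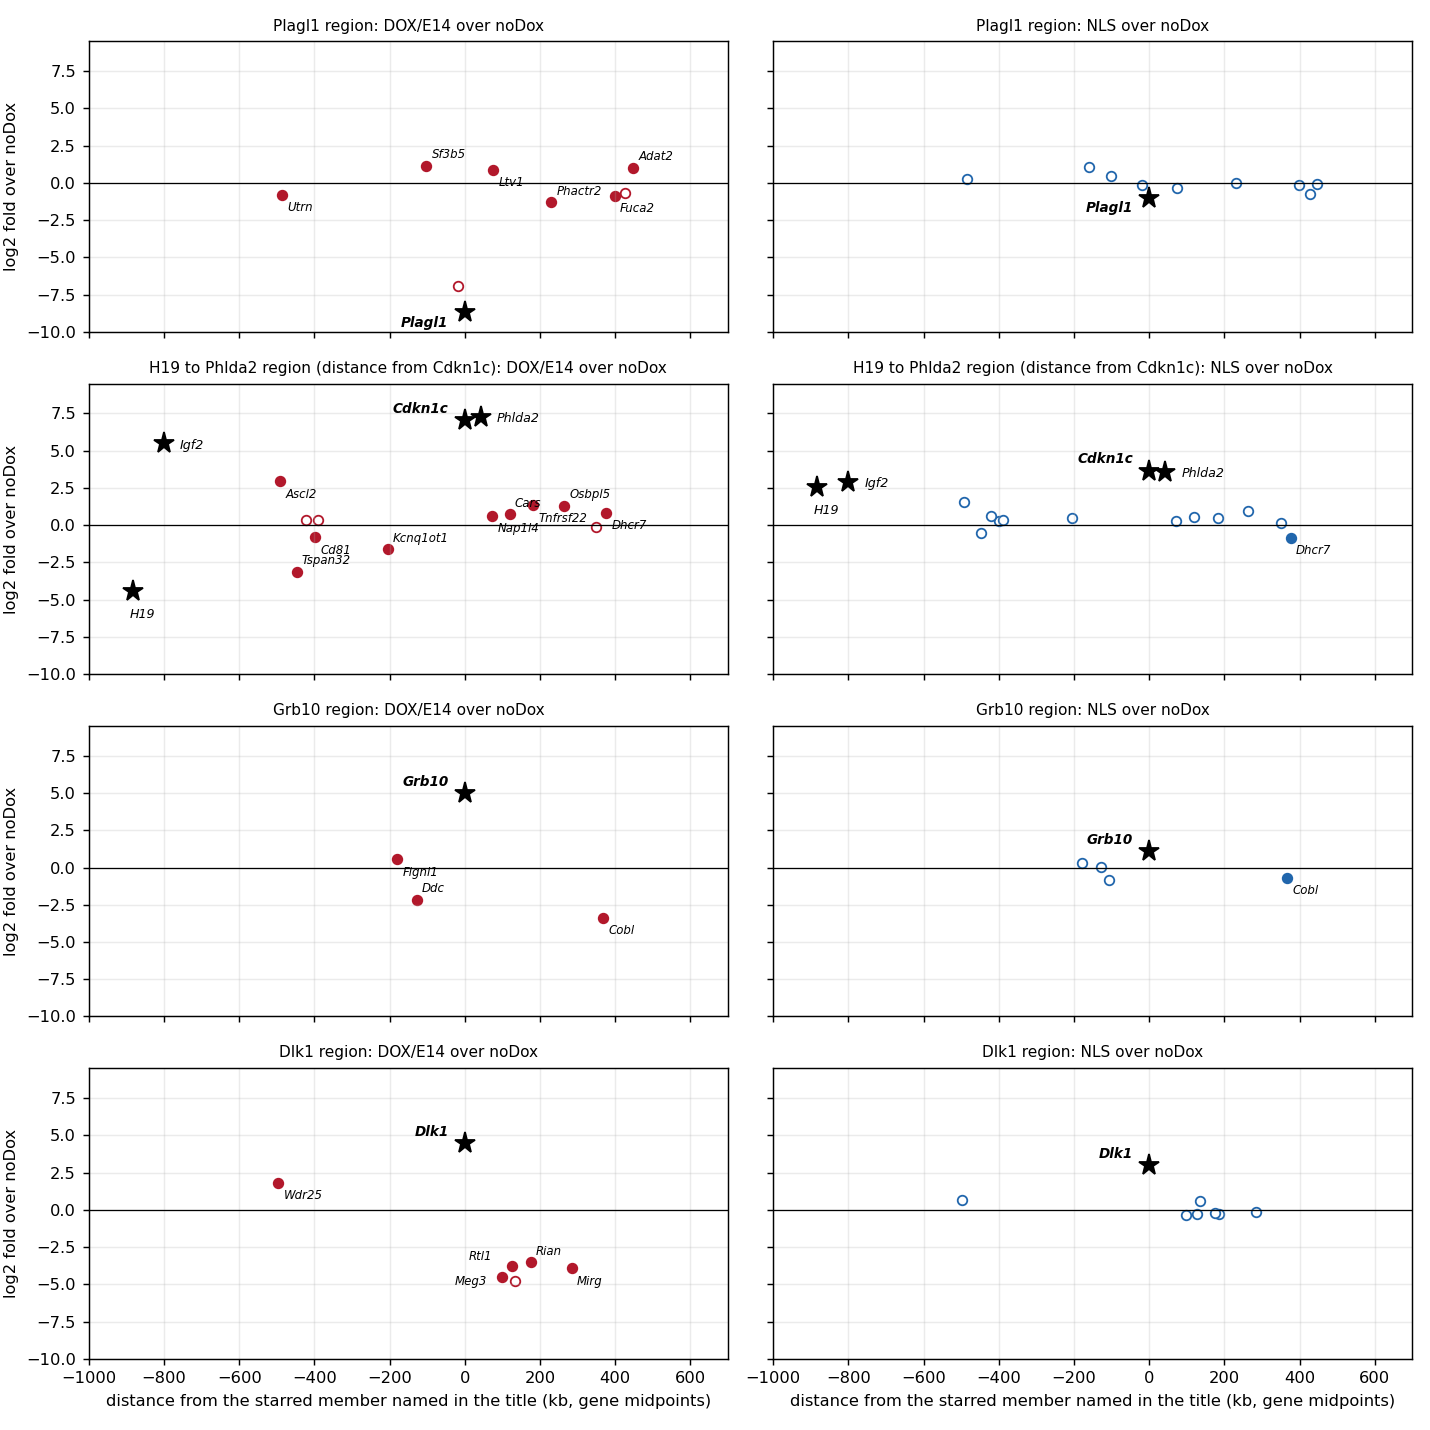
Log2 fold over noDox against distance in kilobases between gene midpoints for tested neighbours with a midpoint within 500 kb of Plagl1, Cdkn1c, Grb10 and Dlk1 (filled, q below 0.05; stars, members; genes named only where called; microRNA genes left out), with DOX/E14 on the left and NLS on the right. Near Dlk1 the 4 genes called lower, Meg3, Rtl1, Rian and Mirg, lie between −4.54 and −3.49 in DOX/E14 and the 1 called higher, Wdr25, at 1.79, while Dlk1 itself, which was not tested, lies at 4.45. With the microRNA genes counted, 5 of 14 tested neighbours of Dlk1 passed in DOX/E14, beside 55.5% of all tested genes.

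Around all 8 members, 167 other genes had a deposited locus within 500 kb of the member's, edge to edge. Overlapping genes share a locus in the tables, so the midpoints of some lie farther away. In DOX/E14 30 of the 52 tested passed, 17 higher and 13 lower (57.7%, beside 55.5% of all tested genes). In NLS 5 of 60 passed, 3 higher and 2 lower (8.33%, beside 8.36%). With gene midpoints within 500 kb instead, a window chosen after seeing the data, the counts were 30 of 50 and 4 of 58. The share of called neighbours was thus near that of all genes in both tables. Beside Cobl, the NLS calls with the largest folds were Dusp8, a phosphatase of MAP kinases near H19, at 2.96 RPKM against 1.37 RPKM in noDox, and Agpat4, an enzyme of phosphatidic acid synthesis near Igf2r, at 34.9 RPKM against 18.1 RPKM. Dhcr7, the last enzyme of cholesterol synthesis, near Cdkn1c, fell in NLS to 6.69 RPKM against 12.2 RPKM in noDox, whereas it rose in DOX/E14 to 21.1 RPKM against 11.9 RPKM. Of the 24 listed genes of the members' imprinted clusters, 13 of 15 tested passed in DOX/E14 (86.7%), 4 higher and 9 lower, with a median log2 fold of −2.03. In NLS 1 of 14 passed (7.14%), Cobl, with a median of −0.05. Th stood below 0.2 RPKM in every group and Mir483 and Slc22a2 were listed at 0 in every group, while Slc22a3 was listed at 0 in NLS and noDox.

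Of 21 genes of the IGF axis beside Igf2 and Igf2r, 8 of 11 tested passed in DOX/E14 (72.7%, beside 55.5% of all tested genes), 5 higher and 3 lower, with a median log2 fold of 0.04. Igfbp4 and Igfbp3, which encode secreted proteins that bind IGFs, rose. Igfbp2, a more abundant one outside the naming rule, was called lower, at 153 RPKM in DOX/E14 against 204 RPKM in noDox. Igfbp4 stood at 8.03 RPKM in DOX/E14 against 0.629 RPKM in noDox (log2 fold 3.67, SE 0.61), and Igfbp3 at 47.0 RPKM against 9.61 RPKM (log2 fold 2.29, SE 0.29). The RNA-binding proteins Igf2bp1 and Igf2bp3, known to bind Igf2 RNA, rose to 201 RPKM against 70.2 RPKM and to 32.4 RPKM against 11.8 RPKM. The family member Igf2bp2 fell, to 19.2 RPKM against 37.7 RPKM (log2 fold −0.97, SE 0.26).

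In NLS 2 of 12 tested genes of this list passed (16.7%, beside 8.36%), with a median log2 fold of 0.25. Igf2bp2 fell here too, to 22.4 RPKM against 38.7 RPKM in noDox (log2 fold −0.79, SE 0.31). Igf1r, the receptor that passes on the growth signal of IGF1 and IGF2, rose to 20.2 RPKM against 13.1 RPKM (log2 fold 0.63, SE 0.30). In DOX/E14 Igf1r fell, to 7.07 RPKM against 12.7 RPKM (log2 fold −0.85, SE 0.26). Igf1 was not tested in either table.

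Of 18 factors that set, keep or erase imprints, 12 of 17 tested passed in DOX/E14, 7 higher and 5 lower (70.6%, beside 55.5% of all tested genes, median log2 fold 0.31). In NLS 2 of 17 passed, both higher (11.8%, beside 8.36%, median 0.07). In DOX/E14 the rises were led by Dnmt3b, at 322 RPKM against 19.3 RPKM, Dppa3, which protects methylation in the zygote, at 8.41 RPKM against 1.395 RPKM, Dnmt3l, at 326 RPKM against 78.8 RPKM, and Dnmt3a, at 32.8 RPKM against 10.1 RPKM. In NLS Dnmt3l rose to 221 RPKM against 80.8 RPKM in noDox (log2 fold 1.45, SE 0.31), and Dnmt3b to 30.8 RPKM against 19.8 RPKM (log2 fold 0.64, SE 0.31). Zfp57 and Trim28, which hold methylation at imprints and were singled out after their values were seen, did not pass in either table. Zfp57 stood at 69.9 RPKM in DOX/E14 against 89.3 RPKM in noDox, and at 126 RPKM in NLS against 91.7 RPKM.

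Among 8 other imprinted genes reported as co-regulated with Plagl1 in the mouse, 7 of 7 tested passed in DOX/E14, 5 higher and 2 lower, beside 55.5% of all tested genes (median log2 fold 0.81). In NLS 1 of 7 passed (14.3%, beside 8.36%, median 0.48). In DOX/E14 Gatm, an enzyme of creatine synthesis, rose to 3.17 RPKM against 0.396 RPKM in noDox , and Gnas, a G protein alpha subunit, to 274 RPKM against 68.1 RPKM (log2 fold 2.01). Ndn fell to 7.05 RPKM against 15.4 RPKM (log2 fold −1.13), as did Meg3, which is also counted among the cluster genes. In NLS Peg3, a zinc-finger gene, rose to 23.0 RPKM against 13.6 RPKM (log2 fold 0.76, SE 0.31). The called genes of the list thus went in both directions in DOX/E14, and a part of Plagl1 in these values was not tested.

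**Figure D4:**
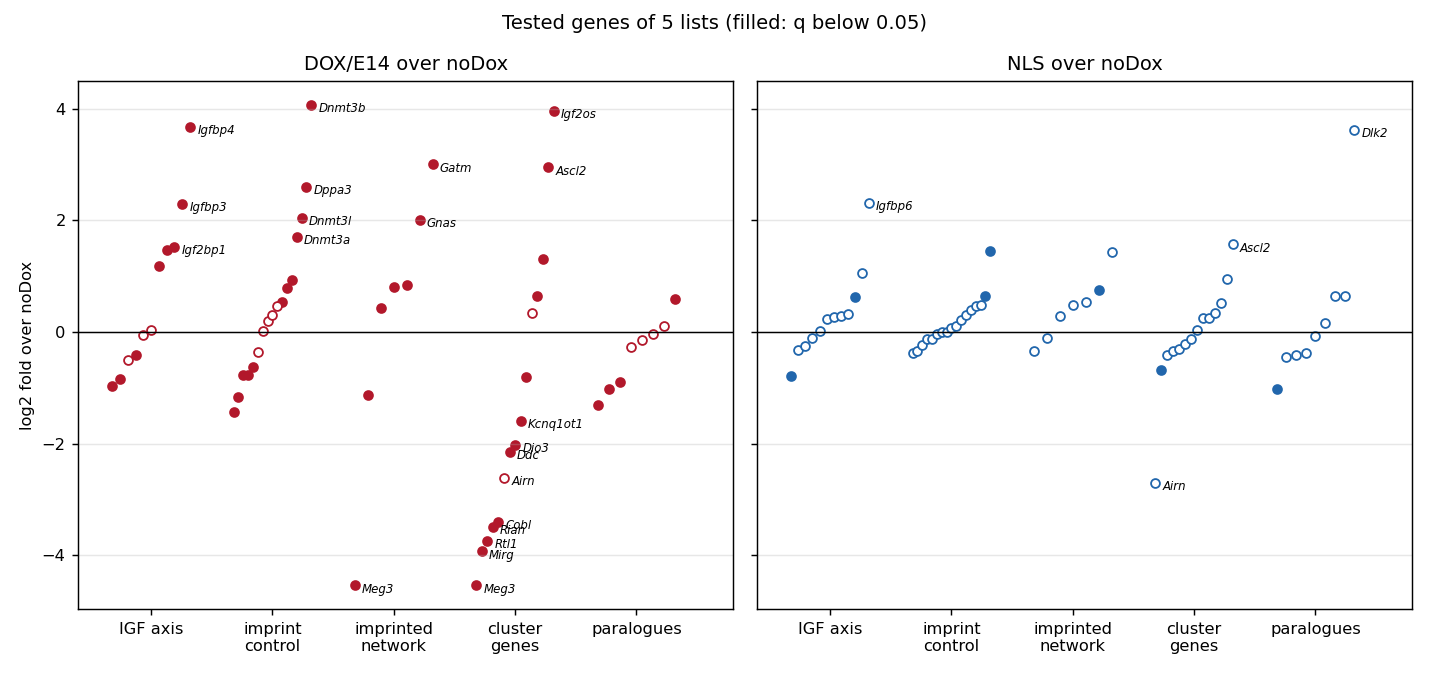
Log2 fold over noDox of the tested genes of 5 lists, with DOX/E14 on the left and NLS on the right; filled points have q below 0.05 and genes past 1.5 in absolute log2 fold are named. The cluster genes reach from −4.54 (Meg3) to 3.96 (Igf2os) in DOX/E14, while in NLS the only called cluster gene is Cobl at −0.68.

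By distance in the plane of both log2 folds, among 11905 other genes tested in both tables, the gene nearest to Plagl1 was Fat2, an atypical cadherin. Fat2 stood at 0.0431 RPKM in DOX/E14 against 18.2 RPKM in noDox, and at 7.82 RPKM in NLS against 18.7 RPKM, and passed as lower in both. C1qtnf9 and Pof1b came next, at distances of 0.41 and 0.79 log2 units. They stood at only 0.0728 and 0.0232 RPKM in DOX/E14, where neither passed, and in NLS C1qtnf9 passed as lower and Pof1b did not pass. The gene nearest to H19 was Zscan4d, of the 2-cell-like state, at 0.0957 RPKM in DOX/E14 against 1.92 RPKM in noDox and at 12.6 RPKM in NLS against 1.97 RPKM. It passed in NLS alone, near-identical Zscan4 copies make its value uncertain, and Gm8994 and Gm12794 followed at 0.49 and 0.51. Gm8994 passed in both tables and Gm12794 in NLS alone. The gene nearest to Grb10 was Dbn1, an actin-binding protein, at 21.7 RPKM in DOX/E14 against 0.870 RPKM in noDox and at 2.03 RPKM in NLS against 0.892 RPKM, followed by Kis2 and Necab2 at 0.35 and 0.72. Dbn1, Kis2 and Necab2 passed in DOX/E14 alone. These likenesses rest on 3 groups and are descriptions.

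Markers of the labelled cell type and of other cell types were summed in the same tables. Calls among them stand beside 55.5% of all tested genes called in DOX/E14 and 8.36% in NLS. The 5 embryonic stem cell markers (Pou5f1, Nanog, Sox2, Zfp42, Esrrb) summed to 805 RPKM in DOX/E14 against 1560 RPKM in noDox, with 4 of 5 lower, and to 1349 RPKM in NLS against 1600 RPKM, with 0 of 4 tested passing. Nanog, Sox2, Zfp42 and Esrrb were the 4 lower markers, with Nanog at 69.3 RPKM in DOX/E14 against 431 RPKM in noDox. Pou5f1 stood at 542 RPKM in DOX/E14 against 501 RPKM in noDox and did not pass. The 7 trophoblast markers summed to 444 RPKM in DOX/E14 against 171 RPKM, with 3 higher and 1 lower of 6 tested. In NLS they summed to 199 RPKM against 176 RPKM, with 2 higher of 5 tested. Krt8 and Krt18 carried most of these sums. Tfap2c was the lower marker in DOX/E14, and Elf5 stood at 0.031 RPKM there against 0.804 RPKM, not tested. The 8 extraembryonic endoderm markers summed to 2.65 RPKM in DOX/E14 against 2.40 RPKM and to 2.03 RPKM in NLS against 2.46 RPKM. Afp was listed at 0 in every group, Apoa1 in DOX/E14 and NLS, and Sox7 and Ttr in noDox. The 5 mesoderm markers summed to 6.73 RPKM in DOX/E14 against 3.10 RPKM, of which T held 5.10 RPKM against 0.0296 RPKM without passing while Kdr was lower, and to 4.56 RPKM in NLS against 3.18 RPKM, and Mesp1 was listed at 0 in DOX/E14 and noDox. The 5 fibroblast markers summed to 11.5 RPKM in DOX/E14 against 0.613 RPKM. Of this sum Col1a1 held 7.79 RPKM against 0.0485 RPKM without passing, while Col1a2, at 2.46 RPKM, was called higher. In NLS the 5 fibroblast markers summed to 2.31 RPKM against 0.627 RPKM. Lum was listed at 0 in every group and Col1a2 and Postn at 0 in noDox. Igf2, Cdkn1c, Phlda2 and Ascl2 are also expressed in the placenta, and the part of other cell types in the members' values was not tested. In these bulk samples, fewer cells expressing a gene and less RNA per cell cannot be told apart.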

How the data were processed

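RNA was sequenced from whole cells lysed in TRIzol, in NEBNext Ultra Directional libraries after depletion of ribosomal RNA, per the labels' protocols. The submitters' processing notes name bcl2fastq 2.17.1, TopHat, Cuffdiff and the build mm10 (GRCm38). The annotation, the other versions and the use of strand are not given in the sources used here. The authors deposited RPKM values per group, a signed test statistic (a score), a p-value and a q-value per gene, per the file headers. The NLS table was scaled on its own, with noDox values 1.03 times those of the first table.

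No pseudocount was added to the deposited RPKM values for log2 folds, which were taken in Python 3.11.15 (pandas 2.3.3), and SEs as the absolute fold over the absolute statistic. A change was called at q < 0.05 of Cuffdiff in the authors' deposited table. The z implied by the p-values was, at the median over genes, 1.41 and 1.42 times the statistic, so most SEs are wide. For members with a low level in a group the SE can instead be too narrow. Phlda2 in DOX/E14 had a log2 fold of 7.28 with an SE of 1.18, but a Cuffdiff p-value of only 0.0204. The scripts were tested on simulated data. Members, lists, motifs and tests were chosen with earlier results of these data known. Named genes are the members, the cluster genes, up to 4 called genes with the largest folds per list and table with at least 1 RPKM in a group, and the 3 genes nearest to Plagl1, H19 and Grb10. Genes named outside this rule (Fignl1, Igfbp2, Wdr25, Zfp57, Trim28, Hymai and single markers) were picked once their values had been seen. Promoters and microRNAs are RefSeq GRCm38.p6, and coordinates and 3′ UTRs GENCODE M21. The deposited summary of log2 folds was not used, and 1 withheld item is not reported here. The p-values measure the spread between libraries that may be technical.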

Additional observations from a re-analysis of the deposited data

Results flagged for a closer look

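H19 was called in opposite directions, lower in DOX/E14 and higher in NLS, and its log2 fold in NLS minus that in DOX/E14 was 6.96. Igf1r was likewise called lower in DOX/E14 and higher in NLS, with a difference of 1.48. Dhcr7, a neighbour of Cdkn1c, was called higher in DOX/E14 and lower in NLS, with a difference of −1.69. These 3 differences were not tested, and both folds rest on the same noDox libraries. No group had the 4 library values needed to look for a library far from the others.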

How the results depend on the processing

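The counts of members called were 6 in DOX/E14 and 4 in NLS at q < 0.05, 5 and 4 at q < 0.01 (Phlda2 in DOX/E14 was lost) and 6 and 3 with a log2 fold past 1 in either direction (Plagl1 in NLS was lost). By this last rule all genes called were 3897 in DOX/E14 and 642 in NLS, IGF axis genes 5 and 0, imprint control factors 6 and 1, co-regulated imprinted genes 4 and 0, and neighbours 18 and 1. By the same rule the cluster genes in NLS came to 0 and the paralogues in DOX/E14 to 2. At q < 0.01 the NLS counts were 531 for all genes, 1 for the IGF axis, 1 for imprint control factors, 0 for cluster genes and 1 for neighbours. Within 250 kb 2 neighbours passed in NLS. The cause is the stricter rule or the smaller window itself. No fold changed sign. Member folds moved by more than their SE, or had none, in 9 of 16 cases with a pseudocount of 1, in 3 of 16 with 0.1, in 2 of 16 after centring and in 1 of 8 with noDox taken from the DOX/E14 table. The 3 cases under these last alternatives were those of Dlk1. No paired analysis was possible because each table gives a single value per group, and for the same reason leaving out a library was not run. Depth is unknown, so values under about 1 RPKM limit the folds that rest on them. Such values were those of Plagl1 and H19 in DOX/E14, of Dlk1 in NLS and noDox, and of Cdkn1c, Phlda2 and Igf2 in noDox.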

Other observations

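Relatives of the members in sequence or function were also measured. Of 10 listed paralogues, 4 of 8 tested passed in DOX/E14, 1 higher and 3 lower, and 1 of 9 in NLS (11.1%, beside 8.36% of all tested genes). The DOX/E14 share lies near the 55.5% of all tested genes. In DOX/E14 the cyclin-dependent kinase inhibitors Cdkn1b and Cdkn1a fell, to 13.1 RPKM against 32.4 RPKM in noDox and to 32.6 RPKM against 66.5 RPKM, where their imprinted relative Cdkn1c rose. Plag1, a zinc-finger relative of Plagl1, fell to 2.90 RPKM against 5.40 RPKM, and Grb7, an adaptor related to Grb10, rose to 26.8 RPKM against 17.8 RPKM. In NLS Plagl2 fell to 4.37 RPKM against 8.91 RPKM in noDox (log2 fold −1.03, SE 0.36).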
